A study of Citrus sinensis with 48 samples.

Results

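LOC102619471 encodes a delta-1-pyrroline-5-carboxylate synthase (P5CS), the enzyme that begins proline synthesis from glutamate. The gene was taken by its identifier, 1 of 30136 genes in the deposited expression table and 1 of 2 that the table describes as P5CS. Its RNA was followed through 16 groups of citrus leaves, 3 libraries in each and 48 in all. In each genotype leaf P5CS RNA had its highest group mean under water stress alone and its lowest under high light alone. In Cleopatra mandarin the libraries under water stress alone overlapped those under water stress with high light. As a ratio to its own control, the rise with water stress was larger in Carrizo citrange than in Cleopatra mandarin, whose control was higher. In the triple stress P5CS stayed high in Carrizo citrange, and in Cleopatra mandarin it stood near the control, with libraries that overlapped both its controls and its high-light group.

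P5CS is a bifunctional plant enzyme. It phosphorylates glutamate and reduces the product to glutamate semialdehyde, which cyclises to pyrroline-5-carboxylate, and this is commonly the rate-limiting step of proline synthesis. Pyrroline-5-carboxylate reductase (P5CR) completes the pathway, ornithine aminotransferase (OAT) supplies the same intermediate from ornithine, and proline dehydrogenase (ProDH) and pyrroline-5-carboxylate dehydrogenase (P5CDH) return proline to glutamate in mitochondria. In Arabidopsis, P5CS transcripts are known to rise with drought and abscisic acid, and proline accumulates in many plants as a compatible osmolyte.

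The genotypes were Carrizo citrange (Car), a hybrid of Poncirus trifoliata and Citrus sinensis, and Cleopatra mandarin (Cleo), Citrus reshni, both used as rootstocks. Each was kept as a control (CT) or exposed to WS (water stress), HL (high light), HS (heat stress), each pair (WS+HL, WS+HS, HL+HS) or all together (WS+HL+HS). The sources used here give neither the strength and length of the stresses nor the age of the plants. Replicates are labelled biological, and nothing says whether each was 1 plant or a pool, so the p-values reflect the variation among these libraries, which may be partly technical. Reads of both genotypes were assigned to sweet orange gene models, so a difference between genotypes in RNA and one in how well their reads matched those models cannot be told apart.

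The libraries held 40294831 to 58392998 counts, and LOC102619471 took 9054 to 109125 of them. At that depth counting error was at most 1.05% of a library's value, well under the spread between libraries of most groups (0.704% to 18.1% of the mean). Levels are given as CPM, counts scaled to a common library size, after scaling, and differences as log2 ratios ± SE from edgeR's quasi-likelihood fit. A difference is called where the Benjamini-Hochberg adjusted p over all 23721 genes tested is below 0.05. Names of 11 columns carry an extra mark whose meaning is not given. In all 6 groups that hold both kinds, mean P5CS in CPM was higher in the marked libraries (0.21 ± 0.04, adjusted p = 0.000248 for the mark as a term). In the deposited length-corrected values the marked Cleo CT library was instead the lowest of its group (445 TPM, against 478 and 495 TPM). All 3 Car HS libraries carry the mark. The 17 leaf mesophyll markers (chlorophyll-binding and Rubisco small subunit genes) were each detected in at least 1 library, though LOC102623191 was at 0 counts in 15 groups. They summed to 6030.7 to 74775 TPM (a length-corrected relative abundance). The 4 root markers (Casparian strip membrane proteins) summed to 0.265 to 7.99 TPM.

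In Car controls P5CS stood at 366, 328 and 403 CPM. Under water stress it stood at 1476, 1707 and 1556 CPM. Every water-stressed library lay far above every control, a difference of 2.11 ± 0.09 (4.32-fold, adjusted p = 4.41e-23). In Cleo controls it stood at 811, 845 and 861 CPM, already above all Car controls. Cleo libraries under water stress held 1847, 2147 and 2083 CPM, again without overlap, a difference of 1.27 ± 0.09 (2.41-fold, adjusted p = 1.88e-16). Calls were common in these comparisons, with 64.9% of all tested genes called in Car and 64.7% in Cleo. By p, P5CS was 494th in Car and 2491st in Cleo, and 15.3% and 30.3% of genes had a larger absolute change.

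High light alone went the other way. Car libraries under high light held 241, 202 and 189.6 CPM, all below the controls, and P5CS fell by 0.79 ± 0.09 on the log2 scale (adjusted p = 1.68e-09). Only 18.5% of genes were called there, and P5CS was 361st by p. Cleo libraries under high light held 696, 694 and 679 CPM, also below all their controls, and P5CS fell by 0.28 ± 0.09 on the log2 scale (adjusted p = 0.00818, 35.7% of genes called). That fall was deeper without TMM (-0.48) and in deposited TPM (-0.49). Heat alone gave a small rise in both genotypes. Car heat libraries held 470.1, 487 and 472 CPM (0.38 ± 0.09, adjusted p = 0.000211, 58.6% called). Cleo heat libraries held 1078, 1042 and 1066 CPM (0.34 ± 0.09, adjusted p = 0.000864, 54.5% called). Both sets lay above all their controls, though 60.4% of genes in Car and 60.9% in Cleo changed more than P5CS did with heat. Every Car heat library carries the column mark. With the mark as a term the rises with heat were 0.32 in Car and 0.41 in Cleo.

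High light and heat together left P5CS near the control in Cleo, and in Car the result depended on the processing. Car HL+HS libraries held 439.6, 479.5 and 467 CPM, above all Car controls, and the difference of 0.34 ± 0.09 was called (adjusted p = 0.00081, 60.9% of genes called). That call rests on the scaling. The deposited TPM averaged 257 in both groups, and without TMM the difference was 0.05 with an adjusted p of 0.651. With the column mark as a term the Car difference was larger, at 0.48. With unmarked libraries only it was 0.50, where Car CT keeps 1 library. Cleo HL+HS libraries held 933, 932 and 814 CPM, on both sides of the controls, and the difference of 0.09 ± 0.09 was not called (95% interval -0.08 to 0.26, adjusted p = 0.368, 67.1% called). Its direction turned without TMM (-0.06), in TPM (-0.08) and with unmarked libraries only (-0.08).

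Where water stress was combined with 1 other stress, P5CS stayed high. Car WS+HL libraries held 1339, 1336 and 1274 CPM (1.85 ± 0.09 against CT, adjusted p = 3.12e-21, 62.1% called). Car WS+HS libraries held 1090.1, 1094 and 1041 CPM (1.56 ± 0.09, adjusted p = 6.53e-19, 66.9% called). Both groups lay above every Car library without water stress and below Car WS. Cleo WS+HL libraries held 1798, 1974 and 1899.6 CPM, overlapping Cleo WS (1.17 ± 0.09, adjusted p = 2.32e-15, 64.9% called). Cleo WS+HS libraries held 1666, 1679 and 1655 CPM, a narrow group below both (0.99 ± 0.09, adjusted p = 3.5e-13, 64.3% called). The order of WS+HS and WS+HL in Cleo turned with the scaling. In deposited TPM WS+HS held 1041 to 1072 and WS+HL 887 to 978, and without TMM their differences from CT were 1.11 and 1.04.

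The triple stress separated the genotypes. Car WS+HL+HS libraries held 1191, 1190.4 and 1143 CPM, a level between Car WS+HL and Car WS+HS (1.68 ± 0.09 against CT, adjusted p = 4.43e-20, 71.2% called). Cleo WS+HL+HS libraries held 619.7, 685 and 873 CPM, spread around the Cleo controls and below every other water-stressed library of either genotype. Against Cleo CT, P5CS fell by 0.21 ± 0.09 on the log2 scale (adjusted p = 0.0274, with 72.5% called). The call was lost in 4 of the 6 fits that left out 1 of these libraries (-0.36 to -0.11), namely without Cleo CT replicate 2 or 3 or without Cleo WS+HL+HS replicate 1 or 2. It was also lost in a fit of these 6 libraries alone (-0.22, adjusted p = 0.155). Ribosomal RNA genes took 5.39%, 3.85% and 1.42% of the counts of these libraries in the same order, so the libraries with less P5CS held more of them, the first at the highest share of all 48 libraries. The Cleo controls held 1.17%, 0.662% and 3.75%. With ribosomal RNA and chloroplast genes left out the difference was -0.23 (adjusted p = 0.0153), and the part of RNA quality in it was not tested beyond that. The 873 CPM library is the marked one of the group, and with unmarked libraries only the difference was -0.37 (adjusted p = 4.7e-06).

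**Figure D1:**
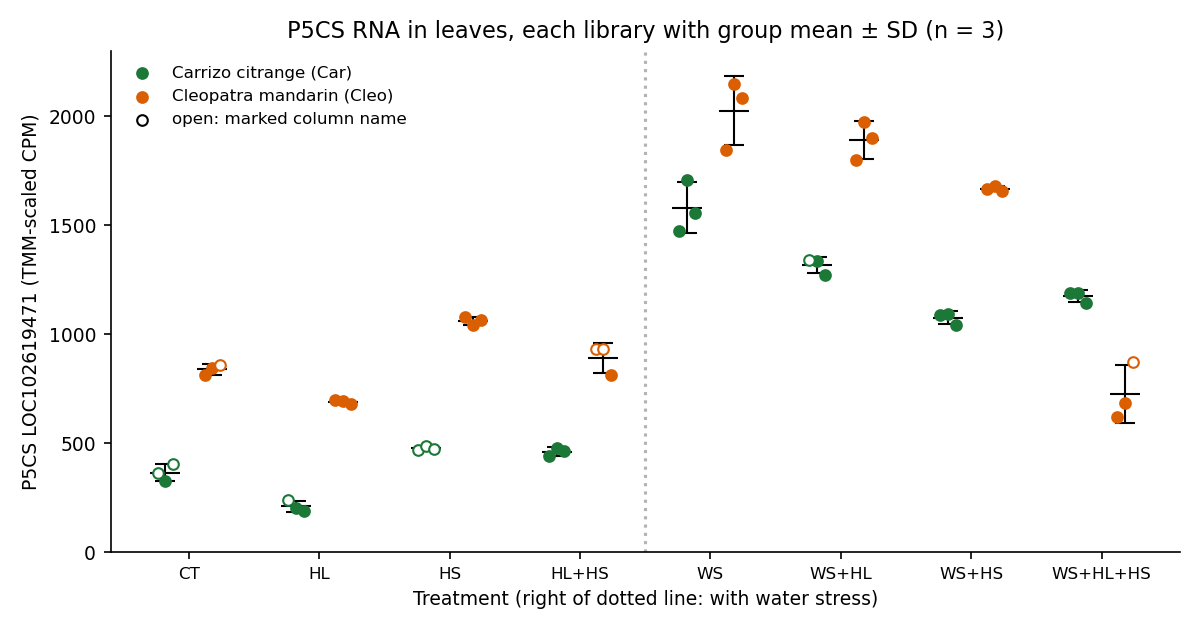
Each point is 1 library's P5CS level in TMM-scaled CPM (linear axis from 0) by treatment, green for Car and orange for Cleo, with the group mean and SD (n = 3). Open points are the 11 libraries with a marked column name. Within each genotype the water-stress groups to the right of the dotted line stand above the others, except Cleo WS+HL+HS at 726 CPM, and the Car WS+HS libraries overlap those of Cleo HS.

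Over the 16 groups the mean level ran from 211 ± 26.6 CPM (SD, n = 3) in Car HL to 2026 ± 158 CPM in Cleo WS, a 9.61-fold range. Car alone spanned 7.49-fold and Cleo 2.94-fold. From the top, Cleo WS was followed by Cleo WS+HL (1890.4 ± 88.1), Cleo WS+HS (1667 ± 11.7), Car WS (1579.5 ± 117) and Car WS+HL (1316 ± 37.0). All of these are water-stress groups. Next came Car WS+HL+HS (1175 ± 27.8), Car WS+HS (1075 ± 29.8), Cleo HS (1062 ± 18.5), Cleo HL+HS (893 ± 68.3) and Cleo CT (839 ± 25.7). Below these stood Cleo WS+HL+HS (726 ± 131), Cleo HL (689.8 ± 9.30), Car HS (476 ± 9.06), Car HL+HS (462 ± 20.4) and Car CT (366 ± 37.3).

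The order is that of TMM-scaled CPM, and it differs in deposited TPM, where Cleo WS (1091), Cleo WS+HS (1061), Car WS (1022) and Cleo WS+HL (939.7) are the first 4. Of the 15 neighbouring pairs in the CPM order, 7 overlapped in their libraries. They were Cleo WS with Cleo WS+HL, Cleo WS+HS with Car WS, Car WS+HS with Cleo HS, and Cleo HL+HS with Cleo CT. The rest were Cleo CT with Cleo WS+HL+HS, the latter with Cleo HL, and Car HS with Car HL+HS. In deposited TPM, which are per length and allow genes to be ranked, P5CS was the 76th most abundant gene of the table in Car WS and the 1244th in Car HL. In controls it was 531st in Car (257 TPM) and 240th in Cleo (473 TPM).

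Marker sums moved beside these levels. The 17 mesophyll markers summed to 6030.7 to 20034 TPM in the 8 groups with water stress and to 25362 to 74775 TPM in the 8 without, and 1 of them (LOC102623191) was at 0 counts in all groups but Cleo WS+HL+HS. The 4 cyclin B genes, markers of dividing cells, summed to 338 to 939 TPM with water stress and to 195 to 1129.5 TPM without. Cleo HL+HS and Cleo WS+HL+HS held the highest root marker sums, 5.91 to 7.99 TPM and 6.20 to 6.47 TPM, against at most 1.63 TPM in any other group. Of these 4 genes, LOC102620734 was at 0 counts in 13 groups and LOC102629307 in 4. In bulk leaf, fewer cells of a type and less RNA per cell cannot be told apart, and the part of these shifts in the P5CS levels was not tested.

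The effect of adding water stress depended on what it was added to. In Car it raised P5CS by 2.64 ± 0.09 over high light (adjusted p = 7.83e-26, 63.9% of genes called), the 150th smallest p of all genes. The addition to heat gave 1.17 ± 0.09 (adjusted p = 3.76e-15, 61.3% called), and to heat with high light 1.35 ± 0.09 (adjusted p = 8.25e-17, 59.8% called). Every Car HS library carries the column mark and no Car WS+HS library does, so that addition to heat and the mark cannot be told apart. With the mark as a term the addition to heat was 1.38, and that to heat with high light stayed at 1.35. P5CS was thus higher with water stress in all 4 Car backgrounds. In Cleo the same additions gave 1.45 ± 0.09 over high light (adjusted p = 2.91e-18, 65.4% called) and 0.65 ± 0.09 over heat (adjusted p = 1.92e-08, 57.2% called). Added to heat with high light in Cleo, water stress was accompanied by a fall of P5CS instead, -0.30 ± 0.09 (adjusted p = 0.00401, 44.0% called). The libraries there overlap, with 873 CPM in the triple above 814 CPM in the pair. The fall was not called without TMM (-0.18, adjusted p = 0.103), in a fit of those libraries alone (-0.27, adjusted p = 0.117) or without Cleo WS+HL+HS replicate 1 (-0.20, adjusted p = 0.0758).

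**Figure D2:**
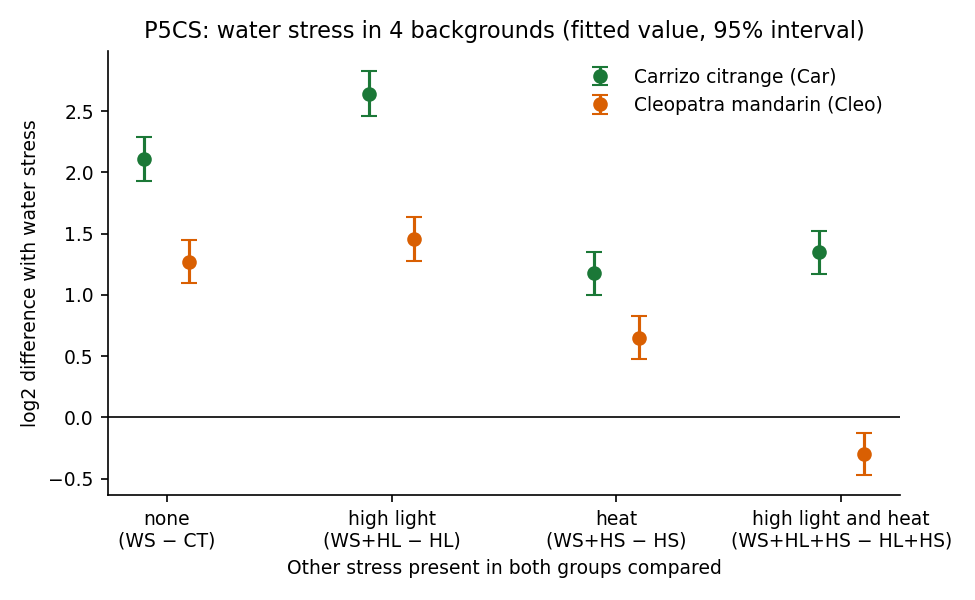
The fitted log2 difference in P5CS between groups with and without water stress, with its 95% interval, against the other stress present in both (green Car, orange Cleo, 3 libraries a group). In Car all 4 values lie above 1, from 1.17 to 2.64. The lowest, over heat, sets unmarked libraries against marked ones, and with the mark as a term it was 1.38. In Cleo they run from 1.45 to -0.30.

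Seen from water stress, each further stress came with less P5CS or with no call. In Car, adding high light to water stress gave -0.26 ± 0.09 (adjusted p = 0.0201, 24.8% of genes called), a call lost without Car WS replicate 2 (-0.20, adjusted p = 0.124) or Car WS+HL replicate 3 (-0.24, adjusted p = 0.0756). Heat added to water stress gave -0.56 ± 0.09 in Car (adjusted p = 5.01e-07, 59.4% called), and both additions together gave -0.43 ± 0.09 (adjusted p = 3.56e-05, 64.0% called). None of the Car combinations fell back to the level without water stress. In Cleo, high light added to water stress gave -0.10 ± 0.09, with an interval of -0.27 to 0.07 and no call (adjusted p = 0.463, 20.1% called). Heat added gave -0.28 ± 0.09 (adjusted p = 0.00435, 60.7% called), a call not made without TMM (-0.06). Both together gave -1.48 ± 0.09 (adjusted p = 2.42e-18, 68.1% called), and 26.3% of genes had a larger absolute change.

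Combinations were also set against the sum of their single responses in log2, all against the same controls. In Car, WS+HL stood above that sum by 0.53 ± 0.12 (adjusted p = 0.00157, 18.1% of genes called) and HL+HS above it by 0.75 ± 0.12 (adjusted p = 6.34e-06, 27.8% called). WS+HS in Car stood below its sum (-0.94 ± 0.12, adjusted p = 4.81e-08, 37.1% called). The sums for WS+HS and HL+HS hold the Car HS libraries, all of them marked. With the column mark as a term these departures were -0.87 for WS+HS and 0.89 for HL+HS. The Car triple matched the sum of its 3 parts to within its error, -0.01 ± 0.17 with an interval of -0.36 to 0.33 (no call, 33.0% called).

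In Cleo, WS+HL departed by 0.18 ± 0.12 and was not called (adjusted p = 0.292, interval -0.06 to 0.43, 25.2% called). HL+HS departed by 0.03 ± 0.12, also without a call (interval -0.21 to 0.28, 50.0% called). WS+HS fell short of its sum (-0.62 ± 0.12, adjusted p = 6.04e-05, 37.3% called). The Cleo triple fell short by more, -1.54 ± 0.17 (adjusted p = 1.99e-09, 41.4% called).

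In TMM-scaled CPM Cleo held more P5CS RNA than Car in 7 of 8 treatments and less in the triple stress. The difference was 1.20 ± 0.09 in controls (2.29-fold, adjusted p = 2.07e-15, 67.4% of genes called), 1.71 ± 0.09 under high light (adjusted p = 5.05e-20, 69.2% called) and 1.16 ± 0.09 under heat (adjusted p = 4.54e-15, 71.0% called). With high light and heat together it was 0.95 ± 0.09 (adjusted p = 9.94e-13, 74.6% called). In all of these every Cleo library lay above every Car library. Under heat every Car library carries the column mark and no Cleo library does, so genotype and mark cannot be told apart there. With the mark as a term the difference under heat was 1.36.

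With water stress the log2 gap was narrower. In mean CPM the gap did not narrow in WS+HL (1890.4 in Cleo, 1316 in Car) or WS+HS (1667 and 1075). The control means were 839 CPM in Cleo and 366 CPM in Car. The log2 gap was 0.36 ± 0.09 under WS (adjusted p = 0.000325, 68.4% called), not called without TMM (0.17, adjusted p = 0.0755). In deposited TPM the WS libraries of the genotypes overlapped, at 987 to 1196 in Cleo and 953 to 1109 in Car. The log2 gap was 0.52 ± 0.09 under WS+HL (adjusted p = 1.15e-06, 68.4% called) and 0.63 ± 0.09 under WS+HS (adjusted p = 3.01e-08, 65.8% called). In the triple stress it was -0.69 ± 0.09 (adjusted p = 2.69e-09, 75.3% called), with the highest Cleo library at 873 CPM and the lowest Car library at 1143 CPM. Per length, in deposited TPM, the triple held 780 ± 20.8 in Car and 398 ± 83.6 in Cleo (SD, n = 3).

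The response itself differed by genotype in 5 of 7 stresses. As Cleo minus Car, the response was smaller for WS (-0.84 ± 0.12, adjusted p = 3.65e-07, 36.1% of genes called), WS+HL (-0.68 ± 0.12, adjusted p = 1.5e-05, 40.0% called) and WS+HS (-0.57 ± 0.12, adjusted p = 0.000196, 41.7% called). For the triple it was -1.89 ± 0.12 (adjusted p = 1.61e-16, 56.4% called), 423rd by p of all genes. As log2 ratios, water-stress responses were thus the smaller ones in Cleo, in all 4 groups that hold it. These ratios start from a higher control in Cleo (839 CPM, against 366 CPM in Car). Under WS the means reached 2026 CPM in Cleo and 1579.5 CPM in Car, and differences in CPM were not tested. For high light the log2 difference of responses was 0.51 ± 0.12 (adjusted p = 0.00226, 15.4% called), with the deeper log2 fall in Car. A fit of those 12 libraries alone did not call it (0.46, adjusted p = 0.0907). For heat the difference was -0.04 ± 0.12 with an interval of -0.29 to 0.20 and no call (43.7% called). For HL+HS it was -0.25 ± 0.12 (interval -0.49 to -0.0026, adjusted p = 0.0873, 50.1% called). That one was called without Car CT replicate 3 (-0.32, adjusted p = 0.0297), with the column mark as a term (-0.46) and with unmarked libraries only (-0.59).

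The second gene described as P5CS, LOC102609124, was present at far lower levels. Its mean ran from 0.132 TPM in Cleo HL to 6.82 TPM in Car WS. As group means it made up 0.0392% to 0.778% of the summed TPM of both genes, and at most 1.06% in a single library (Car HL). Its counts in Cleo controls were 9, 17 and 29, so its fold changes there rest on few reads. How reads shared by both genes were counted is not given, and its low values are uncertain for that reason.

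LOC102609124 rose with water stress in both genotypes, by 2.80 ± 0.27 in Car (adjusted p = 4.67e-12) and 2.87 ± 0.32 in Cleo (adjusted p = 1.86e-10). It was also higher in WS+HL, at 2.09 ± 0.26 in Car and 3.64 ± 0.32 in Cleo. In the Cleo triple the LOC102619471 libraries lay on both sides of their controls. There LOC102609124 held 252, 304 and 234 counts, all above every Cleo control (4.03 ± 0.32, adjusted p = 1.01e-14). Between genotypes the copies stood in opposite order in controls, with LOC102609124 lower in Cleo (-2.19 ± 0.32, adjusted p = 1.56e-07). In the triple stress LOC102609124 was higher in Cleo (0.86 ± 0.25, adjusted p = 0.00246).

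**Figure D3:**
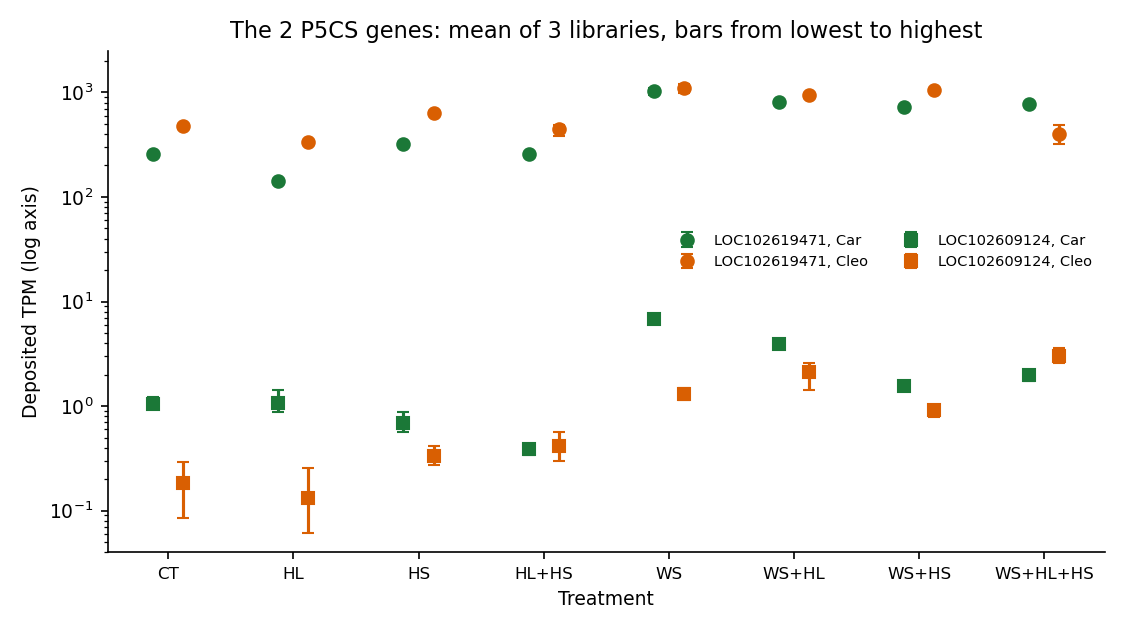
Deposited TPM on a log axis for LOC102619471 (circles) and LOC102609124 (squares) in each treatment, as the mean of 3 libraries with bars from the lowest to the highest (green Car, orange Cleo). The circles lie above the squares in every group. The nearest approach is in Cleo WS+HL+HS at 398 and 3.01 TPM, with Car HL almost as near at 142 and 1.07 TPM.

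The other genes of proline metabolism were taken by words in their descriptions, 9 genes with LOC102619471 included. Of these 8 were tested, since the probable proline transporter 2 LOC112498309 was listed at 0 in all groups but Cleo CT. Called genes that rose and fell numbered 6 and 2 in Car WS, 6 and 2 in Car WS+HL, 4 and 2 in Car WS+HS and 4 and 3 in Car WS+HL+HS. In Cleo they numbered 6 and 1 in WS, 7 and 1 in WS+HL, 5 and 2 in WS+HS and 5 and 2 in WS+HL+HS. Without water stress the counts were 1 and 3 in Car HL, 3 and 3 in Car HS, 4 and 4 in Car HL+HS, 2 and 3 in Cleo HL, 1 and 4 in Cleo HS, and 5 and 1 in Cleo HL+HS. The shares of all genes called in the same comparisons, given above, ran from 18.5% in Car HL to 72.5% in the Cleo triple. Of all genes tested, 7009 were called higher and 8385 lower in Car WS, and 7403 and 7933 in Cleo WS. With 8 genes tested, the counts are a description only. The list's median difference was 1.37 in Car WS and 1.16 in Cleo WS, against -0.08 and 0.00 over all genes tested.

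P5CR (LOC102613618) catalyses the last step. It averaged 47.1 ± 4.06 TPM in Car CT and 68.2 ± 2.16 TPM in Car WS, a rise of 0.65 ± 0.09 (adjusted p = 6.19e-08). In Cleo it went from 51.8 ± 2.31 to 79.2 ± 2.69 TPM (0.68 ± 0.09, adjusted p = 1.67e-08). It also rose in both WS+HL groups, and was not called in WS+HS (-0.06 in Car, -0.12 in Cleo) or the triple (0.05 in Car, -0.02 in Cleo). The ratio of P5CS to P5CR in TPM was lowest in Car HL at 4.03 ± 0.321 and highest in Cleo WS+HS at 19.4 ± 0.743 (SD, n = 3). It was 5.46 ± 0.314 in Car CT and 9.13 ± 0.542 in Cleo CT. In the triple it stood at 16.8 ± 0.668 in Car and 7.98 ± 1.16 in Cleo, so only the Car value lay above its control libraries.

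OAT (LOC102616929), the enzyme of the ornithine route, rose in all 8 groups with water stress. The rise was 1.62 ± 0.07 in Car WS and 1.61 ± 0.07 in Cleo WS. In the Cleo triple, where LOC102619471 did not rise, it was 1.88 ± 0.08 (adjusted p = 3.85e-24), from 14.9 ± 0.175 TPM in the control to 53.7 ± 5.86 TPM. P5CDH (LOC102628909), the second enzyme of proline breakdown, rose in the same 8 groups, by 1.65 ± 0.05 in Car WS, 1.05 ± 0.05 in Cleo WS and 1.34 ± 0.05 in the Cleo triple. Neither rise was limited to water stress, since in Cleo HL+HS OAT also rose by 1.01 ± 0.07 (adjusted p = 2.61e-15) and P5CDH by 0.41 ± 0.05 (adjusted p = 6.76e-10).

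ProDH2 (LOC102606965), the first enzyme of proline breakdown, rose in some groups and fell in others. In Car it fell in all 4 water-stress groups, from -0.60 ± 0.14 in WS+HL to -2.00 ± 0.15 in WS+HS. It rose in Car without water stress, by 1.36 ± 0.13 under high light and 2.02 ± 0.14 under HL+HS. In Cleo WS it was not called (0.16 ± 0.13, adjusted p = 0.299), and in the Cleo triple it rose by 1.44 ± 0.13 (adjusted p = 1.18e-12). Its deepest falls were in Cleo WS+HS (-3.49 ± 0.16) and Cleo HS (-2.32 ± 0.15). Levels in Cleo were 10.3 ± 1.47 TPM in CT, 1.02 ± 0.193 TPM in WS+HS and 27.0 ± 3.97 TPM in the triple.

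Of the proline transporters, LOC102618732 (proline transporter 1) rose by 1.11 ± 0.05 in Car WS and by 2.96 ± 0.06 in Cleo WS. Its control level was lower in Cleo (25.3 ± 1.34 TPM) than in Car (97.1 ± 4.24 TPM), and under WS it reached 187 ± 6.68 and 192 ± 3.06 TPM. In the triple it fell in Car (-0.57 ± 0.05) and rose in Cleo (1.98 ± 0.06). LOC102606955 (proline transporter 1-like) fell in all 8 water-stress groups, between -0.50 ± 0.17 in Car WS+HS and -2.53 ± 0.19 in the Cleo triple. Cleo HL+HS, without water stress, showed the same directions, 1.76 ± 0.06 for LOC102618732 (adjusted p = 1.51e-27) and -2.11 ± 0.19 for LOC102606955 (adjusted p = 4.67e-13). None of the 92 calls of this list turned its sign when moved by the shift that P5CS showed without TMM.

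**Figure D4:**
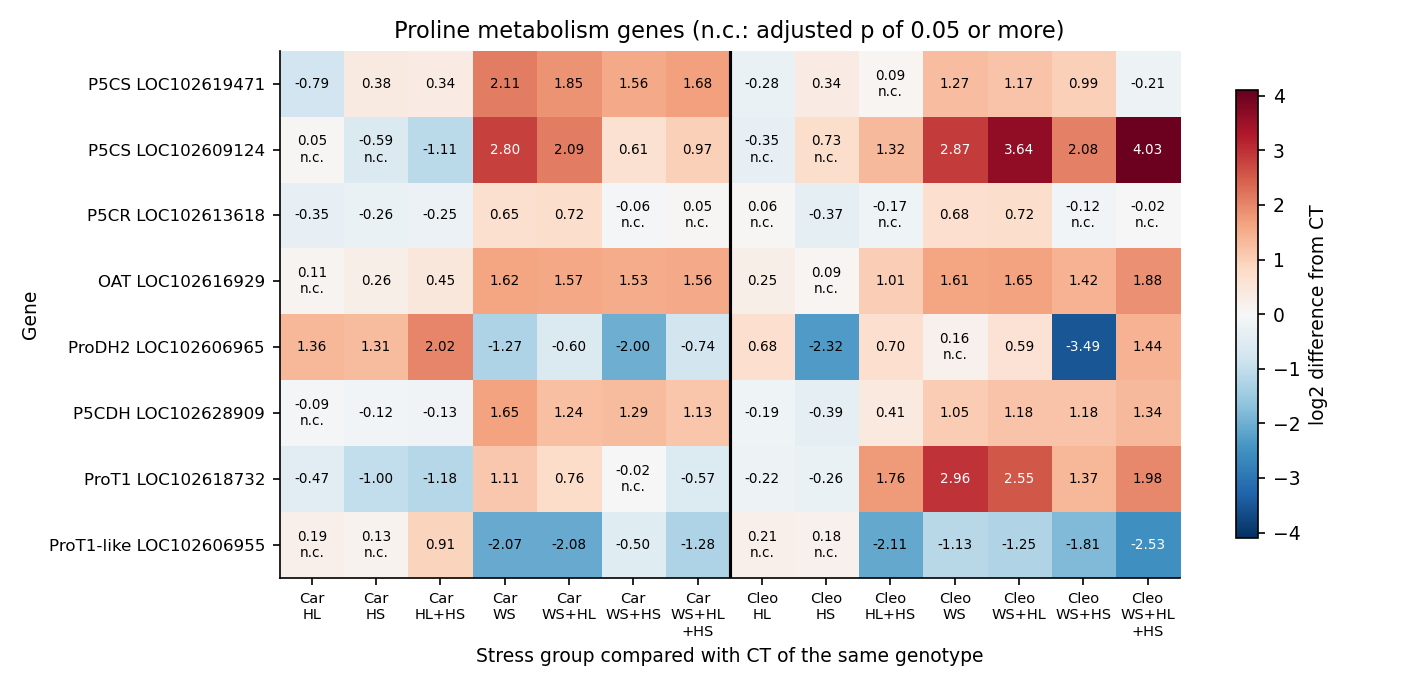
Fitted log2 differences from the control of the same genotype for the 8 tested proline metabolism genes, red above and blue below the control, with the value in each cell and n.c. where it was not called. LOC102619471 is red in 7 of the 8 columns with water stress and -0.21 in the last, where LOC102609124 is at 4.03.

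Genes on either side of the pathway moved in both directions. Of 9 glutamate supply genes, 5 rose and 4 fell in Car WS, and 3 rose and 2 fell in Cleo WS, where 64.9% and 64.7% of all genes were called. In Car the smallest p values were those of NADH glutamate synthase LOC102620225 (1.57 ± 0.07), glutamate dehydrogenase 2 LOC102609585 (1.97 ± 0.13) and the chloroplast glutamine synthetase LOC102610338 (-1.31 ± 0.11). In Cleo they were those of the glutamine synthetase nodule isozyme LOC102626318 (1.50 ± 0.07), LOC102610338 (-1.40 ± 0.11) and LOC102609585 (1.49 ± 0.12). Of 7 arginine and ornithine genes, 2 rose and 3 fell in Car WS, and 3 rose and 3 fell in Cleo WS, against the same shares. Argininosuccinate lyase LOC102618891, which releases arginine, fell in both (-0.56 ± 0.08 in Car, -1.12 ± 0.08 in Cleo), as did acetylornithine deacetylase LOC102630616 (-0.33 ± 0.05 and -0.68 ± 0.05). Argininosuccinate synthase LOC102630538 completed the smallest p values in Car (-0.51 ± 0.07), and acetylornithine aminotransferase LOC102621383 in Cleo (1.41 ± 0.13).

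The genes whose pattern was most like that of P5CS were ranked by Pearson's r of mean log2 CPM over the 16 groups, among the 10210 described genes that averaged 3 or more in log2 CPM. The groups share their libraries and scaling, so r is a description. The median r was 0.14 and 29 genes exceeded 0.9. The highest were the V-type proton ATPase catalytic subunit A LOC102578066 (0.941), which acidifies the vacuole, and 1-acyl-sn-glycerol-3-phosphate acyltransferase 2 LOC102625993 (0.940), a membrane lipid enzyme. They were followed by the helicase subunit XPB1 of transcription factor IIH LOC102621673 (0.937) and the single-stranded DNA binding replication protein A subunit LOC102626079 (0.936). A hypothetical protein LOC102618306 (0.934) and methylthioribose-1-phosphate isomerase LOC102610062 of methionine salvage (0.932) completed the 6.

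The span between the lowest and highest group mean was 3.27 in log2 for P5CS, against a median of 1.73 over the ranked genes and 1.04 to 2.65 for these 6. Within the 8 Cleo groups alone their r ranged from 0.817 to 0.915, and within the 8 Car groups from 0.945 to 0.971. The V-type ATPase subunit, for example, rose from 149 CPM in Car CT to 355 ± 20.2 CPM in Car WS and stood at 233 CPM in Cleo CT, 399.8 CPM in Cleo WS and 259.6 ± 10.8 CPM in the Cleo triple (SD, n = 3). The most opposite patterns were those of a hydroxyproline O-galactosyltransferase GALT4-like gene LOC102623753 (-0.944), endoglucanase 6 LOC102612268 (-0.910) and aspartate carbamoyltransferase 2 LOC102625657 (-0.910). Among the other proline genes r was highest for P5CDH (0.771) and P5CR (0.768) and lowest for the transporter LOC102606955 (-0.595).

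**Figure D5:**
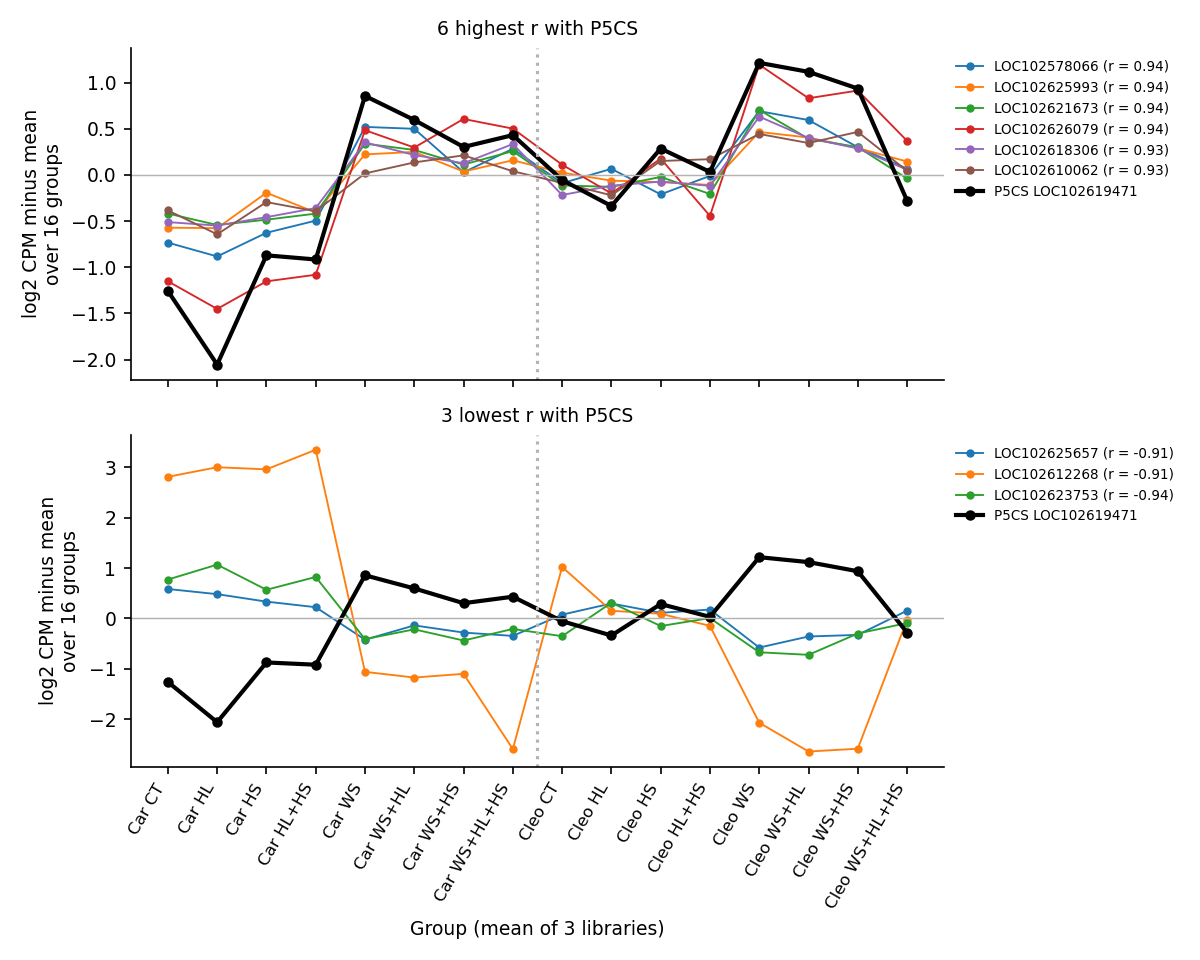
Mean log2 CPM of each group (3 libraries) minus the gene's mean over the 16 groups, for P5CS in black and, in colour, the 6 genes with the highest r above and the 3 with the lowest r below. P5CS spans 3.27, more than each of the 6 genes in the upper panel, whose spans are 1.04 to 2.65.

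In the RefSeq sweet orange table of another assembly (DVS_A1.0), LOC102619471 lies between LOC102619186 and LOC127903111 and overlaps the former. LOC102619186 had 0 to 20 counts in any library, against at least 9054 for P5CS. The deposited table names 3 transcripts of LOC102619471, and all values here are for the gene as a whole.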

How the data were processed

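Leaf RNA was sequenced from stranded poly(A)-selected libraries, per the labels' protocols. Per the submitters' processing notes, the tools included FastQC 0.11.7, HISAT2 2.1.0 and StringTie 2.1.3b, with no order or role stated. The sources used here give neither the strand setting nor the handling of reads with several matches. The deposited table gives read counts, FPKM and TPM per gene and library, per the file headers. The deposited FPKM were not used. The deposited TPM, per length, served only for levels. Counts derived from StringTie can be rounded estimates.

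Counts were fitted in R 4.3.3 with edgeR 4.0.16 (filterByExpr over 16 groups, 23721 genes kept, TMM, robust dispersions, quasi-likelihood test with 16 group means, all 48 libraries). Benjamini-Hochberg adjustment ran over all tested genes, separately for each of 49 comparisons. The script was tested on simulated data. SE and 95% intervals come from the F statistic. Log2 CPM used a prior count of 2. The counting error given covers counting only. No library was counted as a duplicate.

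The gene and the lists were chosen with earlier results of these data known. Named were both P5CS genes, the whole proline list, up to 3 called genes of each neighbouring list with the lowest p, and the 6 highest and 3 lowest r. Alternatives were DESeq2 1.42.0, its size factors, no filter, a replicate block, fewer libraries, the column mark, leaving out ribosomal RNA and chloroplast genes and, added after seeing the data, no TMM. Promoter motifs were not analysed here.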

Additional observations from a re-analysis of the deposited data

Results flagged for a closer look

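The response of P5CS differed between the genotypes in 5 stresses by a test of the difference itself (edgeR's quasi-likelihood test, Benjamini-Hochberg adjustment, Cleo minus Car, 3 libraries a group). In log2 the difference was -0.84 for water stress, 0.51 for high light, -0.68 for WS+HL, -0.57 for WS+HS and -1.89 for WS+HL+HS. In the last, all 3 Car libraries were above their controls (1143 to 1191 CPM against 328 to 403), and the Cleo libraries lay on both sides of theirs (619.7 to 873 CPM against 811 to 861). No group had enough libraries for a check on single outlying values.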

How the results depend on the processing

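For P5CS the DESeq2 Wald test, DESeq2 size factors and no filter on low counts kept direction and call in 49 of 49 comparisons. So did the fit with the replicate block, which moved no difference by more than 0.0012 (Car WS against CT stayed at 2.11). Deviations of same-numbered libraries had a median correlation of 0.0036 (lowest -0.19), with 1.67% of pairs over 0.1. No strong pairing by number was thus seen, and a weak pairing could go unseen in such a median.

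Library totals without TMM moved P5CS by -0.29 to 0.12 in the stress comparisons, over 0.1 in 9 of 14. Car HL+HS against CT became 0.0495, Cleo against Car under WS 0.17, Cleo WS+HL+HS against HL+HS -0.18 and Cleo WS+HS against WS -0.0618, all no longer called, while the Cleo WS+HL departure became called at 0.36. Uncalled values that turned sign were Cleo HL+HS against CT (-0.0593), the response difference for HS (0.0176) and the Car triple departure (0.0714). With the column mark as a term the response difference was 0.0914 for HS and -0.46, now called, for HL+HS, and the Cleo HL+HS departure was -0.18. With unmarked libraries only, Cleo HL+HS against CT was -0.0841, its departure -0.14 and the HL+HS response difference -0.59, now called. Without ribosomal RNA and chloroplast genes the HS response difference was 0.0066 and the Car triple departure 0.0453. With only the libraries of the comparison, Cleo WS+HL+HS against CT (-0.22), the same against HL+HS (-0.27) and the HL response difference (0.46) lost their calls, and the HS response difference (0.0453) and the Car triple departure (0.0088) turned. The mean TPM of Cleo HL+HS gave -0.0822 against CT. The causes were not tested.

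Leaving out 1 library changed 7 of 49 comparisons. Their ranges were -0.31 to -0.20 (Car WS+HL against WS), -0.36 to -0.11 (Cleo triple against CT), -0.45 to -0.20 (Cleo triple against HL+HS), -0.32 to -0.18 (HL+HS response difference), -0.12 to 0.0301 (HS response difference), -0.16 to 0.13 (Car triple departure) and -0.00021 to 0.095 (Cleo HL+HS departure).

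Counts of proline genes moved in some settings. Those higher were 2 in Car HL+HS and 1 in Cleo HL without TMM (1 in Cleo HL also with only the libraries of the comparison), and 2 in Cleo HS without TMM, in DESeq2 and in unmarked libraries. Those lower were 2 in Cleo HL+HS without TMM and with the mark, 2 in Car HL+HS in unmarked libraries and with only its own libraries, and 1 in the Cleo triple with only its own. Over all genes, calls with only the libraries of the comparison fell from 4379 to 1118 in Car HL against CT, from 3659 to 1790 in the HL response difference and from 4301 to 2074 in the Car WS+HL departure, where fewer samples were fitted. Without marked libraries Car HS had no value.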
